A study of Mus musculus with 32 samples.

Results

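The colony-stimulating factor 1 receptor gene Csf1r and its 2 ligand genes, Csf1 and Il34, were followed in single cells from cortex and hippocampus of Tg2576 mice, which model Alzheimer's disease, and of wild-type (WT) mice, given the C5aR1 antagonist PMX205 or plain water (vehicle). The members are the rows of these 3 symbols among 55341 gene rows, chosen by symbol and not by a threshold on their values. CSF1R is a receptor tyrosine kinase at the surface of microglia and other macrophages, which depend on it for survival and proliferation. CSF1 and IL-34 are unrelated in sequence and bind the same receptor. In the healthy brain IL-34 is known mainly as a product of neurons and CSF1 as a product of glia, and microglia around amyloid plaques (disease-associated microglia, DAM) are known to switch on Csf1.

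The data are 32 libraries, 1 of cortex and 1 of hippocampus from each of 16 female mice aged 15 months. The Tg2576 mice were 4 on vehicle and 4 on PMX205, and the WT mice 5 on vehicle and 3 on PMX205, which was given in drinking water for 12 weeks. Tg2576 mice carry human APP with the Swedish mutation under the hamster prion promoter, which acts mostly in neurons. The genotype labels call the transgenic mice APP, and the strain labels name the Arctic model in place of Tg2576. Those strain labels add a C5ar1 knockout in 5 mice (2 of the WT-vehicle arm and 1 of each other arm) and an overexpression of C5a under the GFAP promoter in 5 (2 WT-vehicle, 2 Tg2576-vehicle and 1 Tg2576-PMX205), so that each vehicle arm held 1 mouse without such an allele. For 2 mice the strain and genotype labels disagree (mouse 4 of WT-vehicle and mouse 3 of Tg2576-vehicle), and the genotype label was followed. No term for these alleles was fitted. Any effect of them was therefore not separated from the arms or from the spread between mice, and was not tested. Microglia of the mice labelled as C5ar1 knockout held C5ar1 unique molecular identifiers (UMIs, counted molecules) in 3 of 5 mice, against 8 of 11 of the other mice. The 2 knockout-labelled mice at 0 had 8 and 11 microglia, and WT-vehicle mice 2 and 4, which carry that label, had C5ar1 at 67.9 CPM (6 UMIs, on the counts-per-million scale) and 56.2 CPM (7 UMIs), against 0 to 65.2 CPM in the other mice with at least 20 microglia and no such label. Whether the label is right for those mice was not tested.

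Cells had been sorted with beads against CD11b (microglia and other myeloid cells) and ACSA-2 (astrocytes), which removes most neurons. Of 13917 barcodes, 5625 cells passed the filters, 16 to 764 per library, with a median of 900 UMIs per cell. Barcodes found in 2 or more libraries numbered 289, and 626 of the cells kept carried one. In 4 mice over 20% of the barcodes had a partner that differed only at the first base. The cells formed 17 clusters, which were made without the 3 members and named from other marker genes. Of the 11 microglial markers, P2ry12 was nearly absent from the microglia (9 UMIs), whereas the other 10 lay between 1219 and 9231 CPM, which is here the UMI count of a gene divided by all UMIs in those same cells on the usual counts-per-million scale, as for all levels.

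In the GENCODE M21 annotation of mm10, Csf1r lies on chromosome 18 (61100598 to 61132149, plus strand) and its 3′ end overlaps the 3′ end of Hmgxb3 on the other strand. Csf1 lies on chromosome 3 (107741048 to 107760469, minus strand) and overlaps no other gene. Il34 lies on chromosome 8 (110741829 to 110805924, minus strand), where the antisense genes Gm15894 and Gm15895 overlap it. These neighbours held few UMIs (86 for Hmgxb3, 0 for Gm15894 and 4 for Gm15895). The cells kept held 24504 UMIs of Csf1r in 3841 cells, 309 of Csf1 in 197 cells and 162 of Il34 in 110 cells, so that statements on the ligands rest on small counts. Intervals cover counting error only.

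The receptor was a gene of microglia and perivascular macrophages, and the ligands came from different cells. Microglia held 72.4% of the Csf1r UMIs while making up 30.1% of the cells. Csf1 UMIs were divided mainly between microglia (46.6%) and astrocytes (32.4%), but 82 of the 144 microglial UMIs came from Tg2576-PMX205 mouse 2. Without that mouse microglia held 28.97% and astrocytes 45.3% of 214 UMIs. Il34 was concentrated in pericytes and mural cells, the contractile cells that wrap capillaries and arterioles, which held 69.8% of its UMIs while making up 4.76% of the cells. Clusters and levels come from the same cells, so these values are a description without a test.

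**Figure D1:**
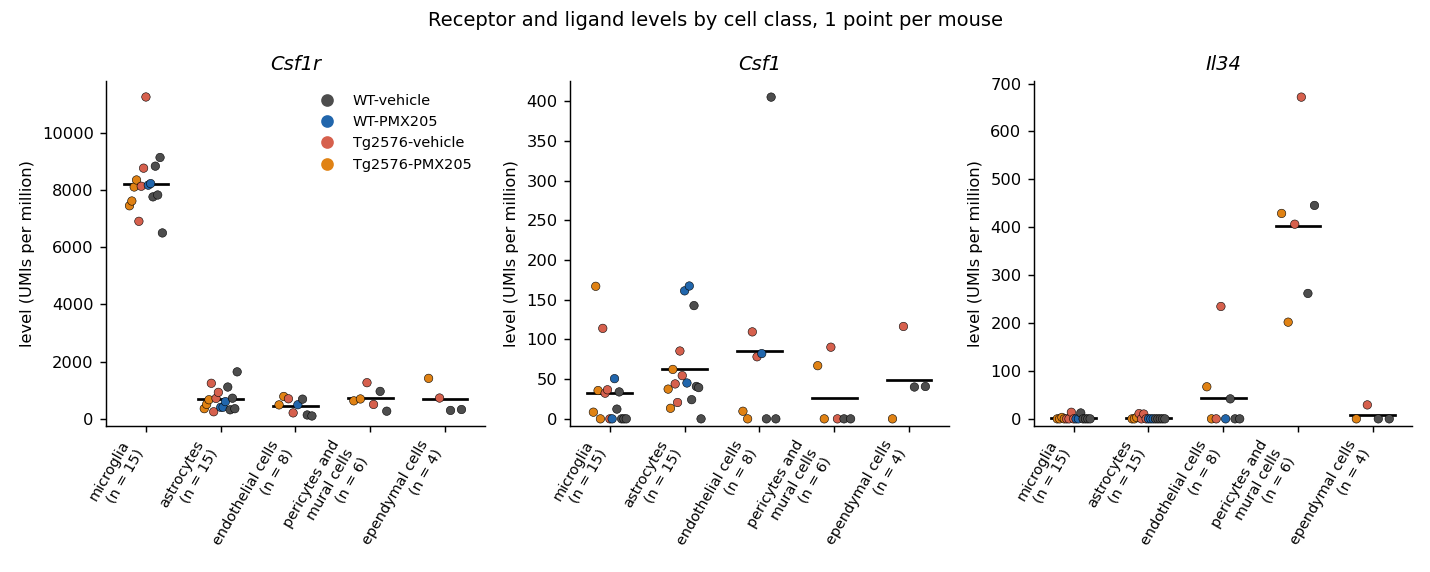
Levels of Csf1r, Csf1 and Il34 (CPM, linear axes) in 5 cell classes. Each point is a mouse with at least 10 cells of the class over both regions, coloured by arm, and the line is the mean over mice. Csf1r was lowest at 6498 CPM among microglia of 15 mice and highest at 1643 CPM among astrocytes, and Il34 stood out in pericytes and mural cells at 403 CPM on average.

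In microglia, Csf1r was at 8200 ± 1094 CPM (SD, n = 15 mice with at least 10 microglia), with a lowest value of 6498, a median of 8130 and a highest value of 11250. The highest value of a mouse in any other named class with enough cells was 1643 CPM, in astrocytes. A pool of 30 perivascular macrophages, which line brain vessels and derive from the myeloid lineage, had 5736 CPM (95% Poisson interval 5013 to 6535), and no mouse had 10 such cells. Astrocytes were at 681 ± 398 CPM (n = 15), endothelial cells at 450 ± 271 (n = 8), pericytes and mural cells at 720 ± 350 (n = 6) and ependymal cells at 691 ± 522 (n = 4). These 4 classes overlapped one another mouse by mouse, and their order has no meaning within that spread. The unnamed cells, 19 of them in a small cluster led by Ptgds, Apod and Npy and the rest in clusters led by mitochondrial and other genes that mark no cell type, had 3564 CPM of Csf1r as a pool and 19.3% of its UMIs. The microglial markers stood there at 40.5% to 85.5% of their microglial level (median 63.2%) and Csf1r at 44.7%, and 662 of the 1630 cells passed a gate on microglial marker UMIs.

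The level of Csf1r outside the myeloid classes stood beside that of microglial markers in the same cells. Astrocytes carried 8.42% of the microglial Csf1r level, and the 11 microglial markers were there at 0% to 18.95% of their microglial level (median 12.5%). In endothelial cells the values were 7.05% for Csf1r and a median of 9.05% for the markers, and in pericytes and mural cells 9.43% and 14.3%. Perivascular macrophages differed, with 72.0% for Csf1r against a median of 26.9% for the markers. Over the 6 named classes outside the myeloid lineage, Csf1r lay at 6.13% to 9.43% of its microglial level. It was below the median of the markers in 5 of them and just above it in ependymal cells (6.83% and 6.43%). No Csf1r expression by these classes is read from such levels. What part of them is free RNA was not tested.

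After each cell was thinned to 500 UMIs, 94.0% of microglia (exact binomial interval 92.7% to 95.1%, 1693 cells) had at least 1 UMI of Csf1r, against 97.8% without thinning. The thinned share was 80.0% in perivascular macrophages (61.4% to 92.3%) and 24.2% in astrocytes (22.1% to 26.5%), with 90.0% and 38.1% before thinning. Median depth was 1045 UMIs in microglia, 955 in perivascular macrophages and 988 in astrocytes.

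Within microglia, Csf1r differed between clusters. The largest cluster, led by Slc2a5, Tmem119 and Selplg and holding 920 cells, had 9076 CPM. A cluster led by Snx29, Nr6a1 and Ldlrad4 had 7288 CPM, and one led by ribosomal protein genes had 6435 CPM. The cluster of 265 cells led by Cst7, Spp1 and Itgax, genes known from DAM, had 5973 CPM. These pools mix the arms unequally, and the order of the clusters was not the same in each arm. In Tg2576-vehicle the Cst7-led cluster had 6137 CPM and the ribosomal cluster 5865 CPM, and in Tg2576-PMX205 they had 5821 and 5949 CPM. In WT-vehicle they had 9867 CPM (2 cells of the Cst7-led cluster) and 7372 CPM. In WT-PMX205 they had 7689 CPM (5 cells of the Cst7-led cluster) and 6750 CPM.

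The 5 genes whose level over the 17 clusters was most like that of Csf1r were Lgmn (Pearson r = 0.976), Arhgap45 (0.974), C1qc (0.972), Fcgr1 (0.971) and Inpp5d (0.971), among genes with at least 200 UMIs. Inpp5d encodes the phosphatase SHIP1, which acts downstream of the receptor. C1qc is 1 of the markers that named the microglial clusters. All these points share the libraries, so the correlations are a description.

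Csf1 was low in every class, and the same Cst7-led cluster of 265 microglia held 111 of its 309 UMIs (35.9%), or 40 of 214 (18.7%) without Tg2576-PMX205 mouse 2. Its level there was 249 CPM, against 17.4 to 21.7 CPM in the other microglial clusters. By mouse it was 399 CPM in Tg2576-PMX205 mouse 2 and 432.5 CPM in Tg2576-vehicle mouse 1. The other Tg2576 mice with at least 10 cells of the cluster had 20.3 to 115 CPM. Astrocytes as a pool had 55.1 CPM (44.8 to 67.0), endothelial cells 47.8 (27.8 to 76.5), ependymal cells 44.1 (20.2 to 83.8) and pericytes and mural cells 29.3 (12.7 to 57.8). These intervals overlap. No UMI of Csf1 was found in the 30 perivascular macrophages, where a count of 0 allows up to 76.1 CPM (3 counts), nor in the 31 neurons, where it allows 66.6 CPM.

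Of the 144 Csf1 UMIs in microglia, 86 cells held at least 1 and no cell held more than 6. The 100 UMIs of astrocytes lay in 65 cells. After thinning, 2.42% of microglia (1.74% to 3.27%) and 1.83% of astrocytes (1.22% to 2.63%) had a Csf1 UMI, and without thinning 5.08% and 4.25%. Over mice, microglia had 32.7 ± 48.1 CPM and astrocytes 62.6 ± 53.2 CPM (n = 15 each), which overlap widely.

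Set side by side in the same mouse, astrocytes had more Csf1 than microglia in 5 of 6 WT mice and in 3 of 6 Tg2576 mice with at least 20 cells of both classes. In WT-PMX205 mouse 1 the values were 161 CPM in astrocytes and 0 in microglia, and in WT-vehicle mouse 2 they were 143 and 33.9 CPM. The order was the opposite in Tg2576-PMX205 mouse 2 (13.3 and 167 CPM) and in Tg2576-vehicle mouse 1 (44.0 and 114 CPM). The Poisson intervals of astrocytes and microglia lay apart only in WT-PMX205 mouse 1 and, in the opposite order, in Tg2576-PMX205 mouse 2. Those of the former were 77.4 to 297 CPM in astrocytes and 0 to 69.6 CPM in microglia. Those of the latter were 2.75 to 38.9 CPM and 133 to 207 CPM. The intervals overlapped in every other mouse compared, so the counts did not resolve the order there. Whether the genotypes differ in the order of these classes was not tested. The genes most like Csf1 over the clusters were Spr (r = 0.780), Gyg (0.759), Pole4 (0.725), Ggh (0.724) and Tmem222 (0.717).

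Il34 was at 403 ± 164 CPM in pericytes and mural cells (n = 6 mice with at least 10 such cells), with a lowest value of 202 and a highest of 672, and none of these mice was at 0. Of the 268 cells, 71 held its 113 UMIs, with 9 in the highest cell. The thinned share of these cells with a UMI was 16.8% (12.5% to 21.8%), and the share without thinning 26.5%. Astrocytes, at nearly the same depth, had a thinned share of 0.0653% (0.00165% to 0.363%). Microglia had 3.14 CPM of Il34 (1.26 to 6.47) and astrocytes 2.21 CPM (0.601 to 5.65). In astrocytes this was 0.532% of the mural level, and the 8 mural markers stood there at 0.264% to 4.12% of theirs (median 0.779%). The unnamed cells held 15 UMIs of Il34, 9.26% of the total, at 11.3 CPM (6.33 to 18.7).

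Endothelial cells had more Il34 than microglia or astrocytes, with 59.0 CPM (36.5 to 90.2) and 21 UMIs. Of these, 9 came from Tg2576-vehicle mouse 3, which had 235 CPM, and 5 of the 8 mice were at 0. The endothelial level was 14.3% of the mural level, and the 8 mural markers stood in endothelial cells at 2.84% to 27.6% of theirs (median 10.2%). The 136 endothelial cells without any UMI of a mural marker had 44.3 CPM (17.8 to 91.3, from 7 UMIs), and the 154 others 70.7 CPM (38.7 to 119). These intervals overlap, and what part of the endothelial level is mural RNA was not tested. In the 31 neurons 1 UMI of Il34 was found (22.2 CPM, 0.562 to 124). The sorted cells hold too few neurons to say how this source of the ligand compares with the vessel wall.

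Among the mural cells, 7 with at least 2 UMIs of the smooth muscle genes Acta2 and Tagln held 7 UMIs of Il34 (1291 CPM, 519 to 2659), and the 261 others held 106 (396 CPM, 325 to 479). Most of the Il34 therefore lay in cells with at most 1 UMI of these genes. The 7 UMIs of the higher value lay in only 3 cells, and the cells come from pooled mice. The intervals cover counting error only, so no difference between these cells is read from them. By region, the pooled level was 418 CPM in cortex and 405 CPM in hippocampus. The genes most like Il34 over the clusters were Oaz2 (r = 0.930), Pcdh18 (0.900), Ifitm1 (0.899), Foxc1 (0.893) and Arhgap29 (0.883). Foxc1 encodes a transcription factor of the vessel wall.

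**Figure D2:**
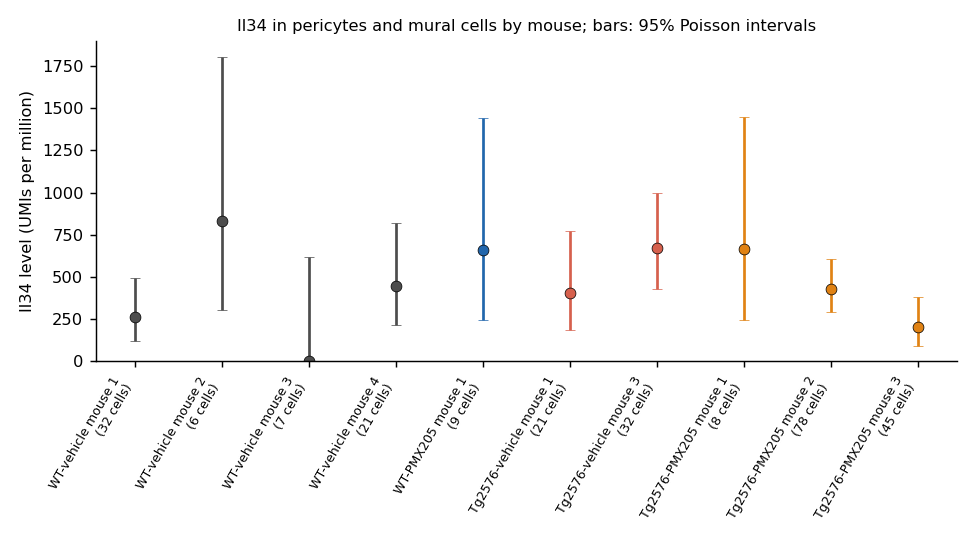
Il34 level (CPM) in pericytes and mural cells of the 10 mice with at least 5 such cells, with the number of cells under each name and 95% Poisson intervals. The point at 0 (WT-vehicle mouse 3, 7 cells) has a limit of 504 CPM by the 3 counts that a count of 0 allows, while its bar is the wider two-sided interval, and the values of the 4 arms are interleaved.

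With at least 5 mural cells per mouse, Il34 was at 384 ± 349 CPM in WT-vehicle (n = 4), at 662 in the only WT-PMX205 mouse, at 539 ± 188 in Tg2576-vehicle (n = 2) and at 432 ± 232 in Tg2576-PMX205 (n = 3). The 4 WT-vehicle mice were at 262, 830, 0 and 445 CPM, and the 2 Tg2576-vehicle mice at 406 and 672 CPM. The arms overlapped. The difference of 155 CPM between Tg2576-vehicle and WT-vehicle had an exact two-sided permutation p of 0.60 (smallest possible 0.0667), and that of -107 CPM between Tg2576-PMX205 and Tg2576-vehicle an exact permutation p of 0.60 (smallest possible 0.10). With so few mice neither comparison could have passed the 0.05 threshold, and these tests were added after the data had been seen.

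The first question of the design, whether receptor or ligand differ with genotype, was asked in microglia of the 12 mice with at least 20 such cells over both regions. No difference of Csf1r by genotype beyond the spread between mice was detected. WT-vehicle mice 1 to 4 had 7759, 8832, 7824 and 9135 CPM, and Tg2576-vehicle mice 1 to 3 had 6904, 8130 and 8762 CPM. The ranges overlap, with 1 Tg2576-vehicle mouse below all WT-vehicle mice and 2 WT-vehicle mice above all Tg2576-vehicle mice. The log2 fold change was -0.03 (SE 0.13, adjusted p = 0.999981 in edgeR's quasi-likelihood test over all genes), with 0.281% of the 3920 genes tested called in either direction.

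**Figure D3:**
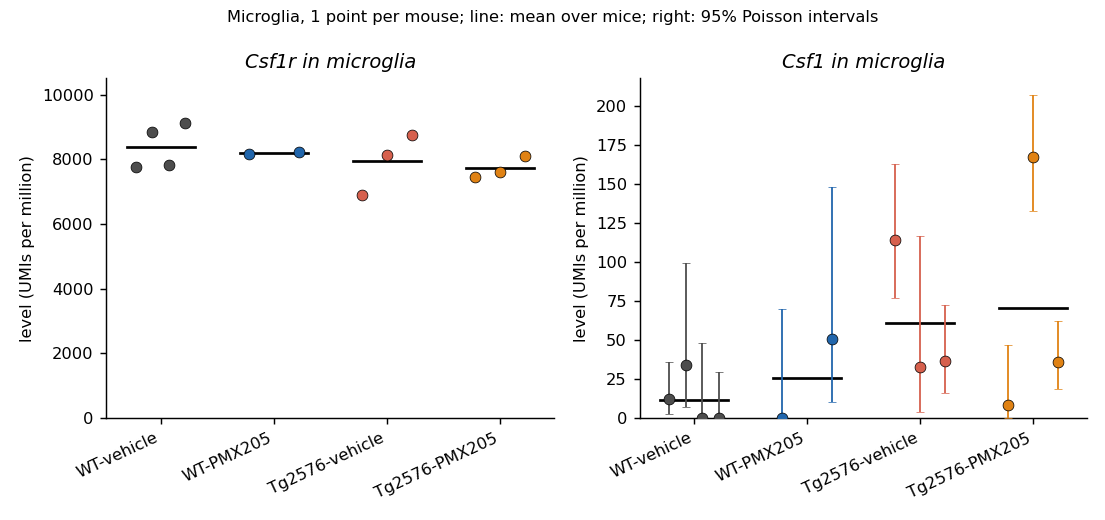
Levels of Csf1r (left) and Csf1 (right) in microglia (CPM), 1 point per mouse with at least 20 microglia, with the mean of each arm as a line and 95% Poisson intervals on the right. Csf1r kept to 6904 to 9135 CPM in the 12 mice, and the 2 highest values of Csf1 were 114 and 167 CPM, both in Tg2576 mice.

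Csf1 in microglia was at 12.3, 33.9, 0 and 0 CPM in the 4 WT-vehicle mice, from 6 UMIs in all. In the 3 Tg2576-vehicle mice it was at 114, 32.3 and 36.6 CPM, from 40 UMIs, 30 of them from mouse 1. Without that mouse Csf1 did not pass the filter on low counts and was not tested. The groups overlap in WT-vehicle mouse 2. The log2 fold change was 2.54 (SE 0.95, unadjusted p = 0.0116) and did not pass the adjustment over all genes (adjusted p = 0.596, edgeR). The exact two-sided permutation test over the 3 and 4 mice gave p = 0.0857 for the difference of 49.4 CPM (smallest possible 0.0286). DESeq2 gave 2.55 (unadjusted p = 0.0153) and no adjusted p, since its own filter left the gene out. A higher Csf1 level in the transgenic arm therefore was not established over the spread between mice. The 2 mice with disagreeing labels are in these comparisons. Without them the genotype difference in microglia was 2.46 for Csf1 (SE 1.07, unadjusted p = 0.0282, adjusted p = 0.920, edgeR) and -0.06 for Csf1r (SE 0.16, adjusted p = 0.999, edgeR).

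The second question was whether PMX205 changed these levels. In Tg2576 mice the PMX205 arm had Csf1r at 7447, 7614 and 8104 CPM, within the vehicle range (log2 fold change -0.06, SE 0.14, adjusted p = 0.999, edgeR). Csf1 was at 8.41, 167 and 35.6 CPM, which spans the vehicle values (log2 fold change 0.20, SE 0.76, adjusted p = 0.999, edgeR). Of its 95 UMIs in this arm, 82 came from Tg2576-PMX205 mouse 2. This mouse is 1 of the 4 with first-base barcode partners. Only Tg2576-PMX205 mice 2 and 3 of those mice entered the fit, so that with a term for them the arm rested on mouse 1 with its 1 Csf1 UMI. That difference was -2.92 (adjusted p = 0.864, edgeR, with the spread taken from the other mice) and gives no direction for the arm.

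In WT mice the PMX205 arm had Csf1r at 8168 and 8223 CPM and Csf1 at 0 and 50.6 CPM. Their log2 fold changes against WT-vehicle were -0.04 (SE 0.15, adjusted p = 0.958, edgeR) and 1.17 (SE 1.49, adjusted p = 0.875, edgeR). All 3 Csf1 UMIs of the arm were in WT-PMX205 mouse 2, and without it the arm is 1 mouse at 0 UMIs, so that no fold can be given. The test of genotype by treatment gave -0.01 (SE 0.21, adjusted p = 0.994, edgeR) for Csf1r and -0.97 (SE 1.64, adjusted p = 0.962, edgeR) for Csf1. In these 3 comparisons 0.0% of genes were called, and 337, 115 and 214 of the 3920 genes had an unadjusted p under 0.05 for PMX205 in WT, PMX205 in Tg2576 and genotype by treatment. DESeq2 called 0 genes in these comparisons too. Markers of astrocytes, vessel cells, neutrophils and T cells among the genes tested in microglia were not called in any comparison between arms.

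Inside the microglia of the same transgenic mouse, cells with DAM genes had more Csf1 and less Csf1r than the others in the 3 mice with at least 10 such cells. Microglia were gated as having UMIs of at least 2 of 6 DAM genes (Cst7, Lpl, Itgax, Clec7a, Spp1 and Gpnmb) after thinning to 500 UMIs. These genes encode lysosomal, lipid-handling and surface proteins that DAM are known for, and neither member is among them. Of the 16 mice, 3 had at least 10 gated cells, all of them Tg2576, and gated cells made up at most 2.56% of the microglia of any WT mouse.

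In Tg2576-PMX205 mouse 2, Csf1 was at 420 CPM in 71 gated cells (309 to 559) and at 92.3 CPM in 324 others (64.3 to 128). In Tg2576-PMX205 mouse 3 it was at 319 CPM in 11 gated cells (117 to 693) and at 18.9 CPM in the others (6.93 to 41.1). In Tg2576-vehicle mouse 1 it was at 448 CPM in 20 gated cells (245 to 752) and at 69.0 CPM in the others (39.4 to 112). In each of these mice the gated interval lay above the other.

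Csf1r in the same mice was at 5018, 5310 and 5569 CPM in gated cells and at 8379, 8269 and 7084 CPM in the others. It was lower in gated cells of all 3 mice, again with intervals that did not overlap. Of the 4262 genes with at least 100 UMIs in microglia, 9.74% were higher and 26.4% lower in gated cells of all 3 mice. Csf1, with 144 UMIs in microglia, reached that minimum only through its gated cells, which held 67 of its 124 UMIs in these mice. The share of 9.74% is therefore no measure for Csf1. The mean log2 ratio, with 10 CPM added to each level, was 2.71 ± 0.73 (SD, n = 3) for Csf1 and -0.57 ± 0.20 for Csf1r, each with an exact sign-flip permutation p of 0.25, the smallest that 3 mice can give.

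**Figure D4:**
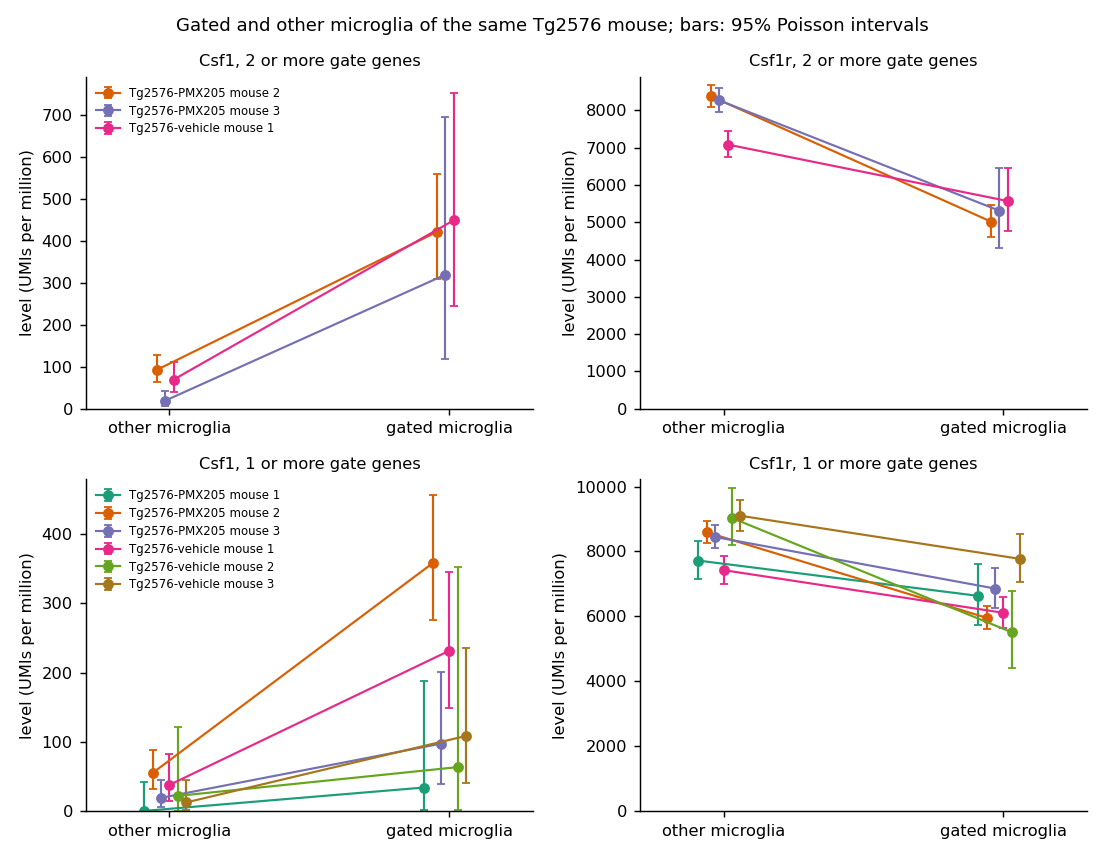
Csf1 (left) and Csf1r (right) levels (CPM) in gated and other microglia of the same Tg2576 mouse, joined by a line, with 95% Poisson intervals. The upper row shows the 3 mice with at least 10 cells holding 2 or more of the 6 gate genes, and the lower row the 6 mice that qualify with 1 or more. Csf1 was higher and Csf1r lower in the gated cells of each mouse shown.

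With UMIs of at least 1 gate gene, 6 Tg2576 mice qualified. Csf1 was higher in gated cells of all 6 (mean log2 ratio 2.08 ± 0.48, exact permutation p = 0.0313) and Csf1r was lower in all 6 (-0.38 ± 0.20, exact permutation p = 0.0313), which is the smallest p that 6 mice can give. Over all 4262 genes, 2.67% were higher and 5.73% lower in gated cells of all 6 mice, and among the 101 abundant genes 18.8% were lower. Csf1 is among the 4262 genes only through its gated cells, so the 2.67% is no measure for it. Csf1 ranged from 33.8 to 358 CPM in gated and from 0 to 54.9 CPM in other microglia. The 2 mice with the lowest gated values had 1 UMI each. With at least 2 gate genes and as few as 5 gated cells, 5 mice qualified. Tg2576-vehicle mouse 3 then had no Csf1 in 5 gated cells and Csf1r at 8766 and 8762 CPM, and the permutation p was 0.188 for Csf1 and 0.125 for Csf1r (exact).

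The size of the Csf1r difference has to be read against other genes. The median log2 ratio over the 4262 genes was -0.46. Among the 101 genes with at least 2000 UMIs, which are closer to Csf1r in count, the median was -0.25, 45.5% were lower in all 3 mice, and 26 had a lower ratio than Csf1r. A lower value in every mouse was thus common among abundant genes.

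Of the 10 microglial markers with enough UMIs, 8 were lower in gated cells of every mouse. Trem2 was higher in every mouse (0.86) and Ctss, a lysosomal protease gene, did not keep 1 direction (-0.01). Tmem119 (-1.13), Selplg (-0.83) and Cx3cr1 (-0.79), surface genes of homeostatic microglia, had lower log2 ratios than Csf1r, as did the complement subunit gene C1qb (-0.64). Its partners C1qc (-0.28) and C1qa (-0.21) had higher ones. Of the 27 other pathway genes with at least 100 UMIs, 3 were higher in every mouse and 9 lower, shares near the 9.74% and 26.4% of all genes, so that the list does not stand out. Those higher were Tyrobp (0.96), the adaptor DAP12 that couples to CSF1R signalling, Trem2 (0.86), which signals through the same adaptor, and Ptpn6 (0.54), the phosphatase SHP-1. Those lower included the Src-family kinase Lyn (-1.13), the phosphatase gene Inpp5d (-0.52), the adaptor gene Grb2 (-0.88), the transcription factor gene Runx1 (-1.05) and the master regulator of the myeloid lineage Spi1 (-0.16). Tyrobp and Trem2 are themselves known as DAM genes.

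The Cst7-led cluster, made without Csf1 and Csf1r, gave the same picture as a description. In the 6 Tg2576 mice with at least 10 of its cells, Csf1 was at 20.3 to 432 CPM in the cluster and at 0 to 35.1 CPM in the other microglia, and higher in the cluster in all 6. Csf1r was at 5341 to 6704 CPM in the cluster and at 7300 to 9726 CPM outside it. Per mouse with at least 20 microglia, the cluster held 18.7% ± 2.9 (SD, n = 3) of the microglia in Tg2576-vehicle and 25.8% ± 9.59 (n = 3) in Tg2576-PMX205, where the ranges of 15.5% to 21.1% and 15.4% to 34.2% overlap. In the WT mice it held 0% to 10.3%. No Csf1 UMI was found in the 7 cluster cells of WT mice, where a count of 0 allows up to 338 CPM, above the level of the whole cluster. Tg2576-PMX205 mouse 2 alone supplied 71 of the 111 Csf1 UMIs of the cluster.

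Between regions, Csf1r in microglia was lower in the hippocampus in 7 of 8 mice with at least 20 microglia in both libraries. Cortex had 8512 ± 1172 CPM and hippocampus 7568 ± 614 CPM (n = 8). Values ran from 6409 to 10030 CPM in cortex and from 6528 to 8392 CPM in hippocampus, and the mouse that went the other way was Tg2576-vehicle mouse 1 (6409 in cortex and 7617 in hippocampus). Of 4 astrocyte markers tested in these microglia, Slc1a3 was called lower in hippocampus (-1.01, adjusted p = 0.0336, edgeR), and it is 1 of the 2 genes called in all. Its part in the Csf1r values was not tested. The log2 fold change of -0.17 for Csf1r (SE 0.08, unadjusted p = 0.0420) did not pass the adjustment over all genes (adjusted p = 0.746, edgeR with mouse as a block, 0.0743% of 2690 genes called). Csf1 in microglia did not pass the filter on low counts for this comparison, with 50.6 ± 57.2 CPM in cortex and 52.4 ± 65.2 CPM in hippocampus.

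In astrocytes Csf1r fell by 1.73 on the log2 scale from cortex to hippocampus (SE 0.28, adjusted p = 6.34e-06, edgeR with mouse as a block, n = 8 mice). Cortex had 832 ± 411 CPM and hippocampus 309 ± 339 CPM, and the hippocampus was lower in 7 of 8 mice. The exception was WT-vehicle mouse 3 (676 in cortex and 869 in hippocampus), and Tg2576-PMX205 mouse 2 went from 579 to 0 CPM. In this comparison 4.69% of 1557 genes were called, 3.28% as lower in the hippocampus.

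All 10 microglial markers tested were also called lower in hippocampal astrocytes, by 1.11 to 3.02 on the log2 scale with a median of -1.61, and P2ry12 was not tested. Csf1r lay inside that range. Of the 8 astrocyte markers tested none was called, and their changes ran from 0.04 to 0.45. Per 100 UMIs of the 11 microglial markers, astrocytes held 12.5 UMIs of Csf1r in cortex and 11.3 in hippocampus, against 20.1 and 22.1 in microglia. Summed, the markers were at 6479 CPM in cortical and 2108 CPM in hippocampal astrocytes. Their part in the Csf1r result was not tested beyond these values. Microglia made up 28.3% of the cells kept in cortex and 35.9% in hippocampus.

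**Figure D5:**
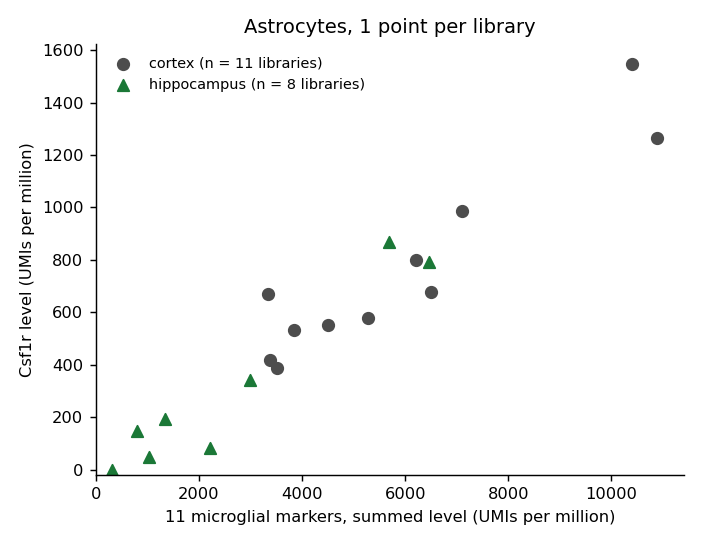
Csf1r level in astrocytes against the summed level of the 11 microglial markers in the same astrocytes (both in CPM), 1 point per library with at least 20 astrocytes. The 2 cortical libraries with the highest marker levels have Csf1r at 1546 and 1265 CPM, and the hippocampal library at 0 CPM of Csf1r has the lowest marker level, 318 CPM.

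Across the arms, no difference of Csf1r or Csf1 in astrocytes beyond the spread between mice was detected. WT-vehicle mice had Csf1 at 24.2, 143, 40.9 and 39.4 CPM and Tg2576-vehicle mice at 44.0, 20.6 and 85.5 CPM (log2 fold change 0.02, SE 0.64, adjusted p = 0.997, edgeR). Tg2576-PMX205 mice were at 37.5, 13.3 and 62.3 CPM (-0.56 against vehicle, SE 0.75, adjusted p = 0.998, edgeR), and WT-PMX205 mice at 161 and 45.2 CPM (0.90 against vehicle, SE 0.81, adjusted p = 0.839, edgeR). The exact permutation p for these differences in CPM was 0.829, 0.60 and 0.533, where the smallest possible p was 0.0286, 0.10 and 0.0667, so neither PMX205 comparison could have passed 0.05 in this test. For Csf1r the log2 fold changes were 0.24 (SE 0.34), -0.54 (SE 0.37) and -0.70 (SE 0.45), with adjusted p = 0.997, 0.998 and 0.711 in edgeR. In the 3 astrocyte comparisons between arms 0.0% of genes were called, and 155, 191 and 335 of 4417 genes had an unadjusted p under 0.05. DESeq2 called 0 genes there as well.

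The other 44 genes of the receptor's pathway, its alternative binding partners and sheddases, adaptors, kinases and lineage transcription factors, held no called gene in microglia, where few or no genes were called at all. In the genotype comparison 0 of the 31 tested passed, beside 0.281% of all genes tested, and their median log2 fold change was 0.08, against -0.02 over all genes. Among those with the largest differences were Tyrobp (0.48, SE 0.18, adjusted p = 0.596, edgeR) and the guanine nucleotide exchange factor Vav1 (-0.42). In both PMX205 comparisons 0 of 31 passed, beside 0.0% of all genes, and between the regions 0 of 29, beside 0.0743%. At these shares a count of 0 says nothing particular about the pathway. For PMX205 in Tg2576 the median was -0.09 against 0.00 over all genes, with the kinase Akt1 (-0.51), the phosphoinositide 3-kinase subunit Pik3r1 (-0.39) and Vav1 (0.39) at the front.

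For PMX205 in WT, where 2 mice carried the treated arm, the median was 0.01 against -0.04 over all genes, with the adaptor Gab2 (-1.65) and Pik3cb (1.55) among the largest differences. None of the 31 genes passed in the genotype by treatment test, where Pik3cb (-1.81) and Pik3cd (-1.51) were among the largest differences. None of 29 passed between regions, where Stat5b (0.77) and Grb2 (-0.46) were among the largest. None of 21 genes passed in the 3 arm comparisons of astrocytes, with medians of -0.04, 0.05 and -0.33 against 0.00, -0.02 and -0.07 over all genes. Among the largest differences there were those of Mitf (1.24), Cblb (-1.15) and Akt1 (1.03) for genotype, of Cblb (1.28), Cbl (-1.17) and Akt1 (-0.996) for PMX205 in Tg2576, and of Sos1 (2.72) and Lyn (-2.03) for PMX205 in WT.

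Between the regions in astrocytes, 2 of the 10 pathway genes tested were called, both lower in hippocampus, where 4.69% of all genes tested were called and 3.28% as lower. They were Tyrobp (-1.91, SE 0.30, adjusted p = 2.43e-06, edgeR) and Trem2 (-1.31, SE 0.35, adjusted p = 0.0132, edgeR), which are genes of microglia, and Trem2 is also 1 of the 10 markers above. The next largest differences were those of Lyn (-0.73), Adam10 (-0.70) and Akt2 (-0.70), none of which passed. The median over the 10 genes was -0.58, against -0.05 over all genes.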

How the data were processed

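Libraries were made with the SureCell 3′ kit on the ddSEQ system, and the authors deposited raw UMI counts per gene and barcode (at least 300 UMIs), made with kb_python on mm10 with GENCODE M21, after bcl2fastq 2.18.0.12 per the labels. Library totals ran from 37205 to 1072049 UMIs. Following the study's methods, cells with at least 500 UMIs, at least 300 genes and at most 5% mitochondrial UMIs were kept, and the top 6% of Scrublet scores (scanpy 1.11.5) per library, a share chosen here since the study names only the tool, were removed as doublets (340 cells). Cells were clustered with Seurat 5.3.0 (SCTransform, 30 components) and Leiden (resolution 0.8) without the 3 members. Clusters under 20 cells stayed unnamed, a limit set after the data had been seen. UMIs were summed per mouse and class, or per library for regions, with at least 20 cells per sum. They were tested with edgeR 4.0.16 (quasi-likelihood, TMM, Benjamini-Hochberg over all genes passing filterByExpr, adjusted p below 0.05), which was tested on simulated data. The SE is the fold change divided by the root of F. Replicates are mice, numbered in accession order, and the 2 regions come from the same animal. How far the libraries of an animal deviated together, over 680 genes, varied. The correlation ran from 0.0929 in Tg2576-PMX205 mouse 1, where little was shared, to 0.625 in Tg2576-vehicle mouse 1. Whether processing days were shared is not given in the sources used here. The alternatives were DESeq2 1.42.0, RLE factors, other filters, cell choices and regions, and leaving out mice. Named genes are the members, pathway genes called or among the 3 largest others, and the 5 genes most like each member. A few pathway genes that this rule names are not reported here. The members and lists were chosen with earlier results of these data known. No protein or promoter sequence was used here.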

Additional observations from a re-analysis of the deposited data

Results flagged for a closer look

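Of 7 groups of 4 mice examined for a value far from the rest, 2 held one. The cutoff flags about 1 in 20 groups of normally distributed values. A group with 3 values at 0 and 1 above it is always flagged, so that rate does not hold for Il34 here. Il34 in microglia was at 12.3 CPM in WT-vehicle mouse 1 (3 UMIs) and at 0 in the other 3 mice of the arm. A count of 0 allows 24.1 to 38.9 CPM in those mice, which is above that value, so the difference was not detectable at this depth. Csf1 in astrocytes was at 143 CPM in WT-vehicle mouse 2 (14 UMIs), and at 24.2 to 40.9 CPM in the other 3.

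The barcodes left out by the filters on UMIs, genes, mitochondrial share and doublets held signal of all members, with 12002 UMIs of Csf1r, 133 of Csf1 and 52 of Il34. As levels these were 3280, 36.4 and 14.2 CPM, against 3854, 48.6 and 25.5 CPM in the cells kept.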

How the results depend on the processing

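No alternative brought an arm comparison of Csf1r or Csf1 past the threshold, and the regional difference of Csf1r in astrocytes was called under all 18 alternatives run (adjusted p = 3.27e-11 to 0.0431, edgeR or DESeq2). For Csf1 in microglia by genotype the log2 fold change ran from 2.15 to 3.34 over 21 alternatives (adjusted p = 0.240 to 0.997, with none from DESeq2). These do not include cortex only, at least 50 cells or the fit without the Cst7-led cluster, where Csf1 did not pass the filter on low counts. The small differences of members that were not called changed sign as follows, and the cause was not tested. Csf1r in microglia by genotype was 0.0027 with doublets kept, 0.0344 with cells chosen one by one from marker UMIs, 0.0273 in cortex only, 0.0086 in hippocampus only and 0.0385 without the Cst7-led cluster. Csf1r in microglia for PMX205 in Tg2576 was 0.0364 with no filter on low counts and 0.0118 without the mice with disagreeing labels. For PMX205 in WT it was 0.0036 with doublets kept, 0.0879 with cells chosen one by one and 0.0121 without those mice. For genotype by treatment it was 0.2038 with no filter, 0.0415 with at least 1000 UMIs per cell, 0.0166 in cortex only and 0.0338 without the Cst7-led cluster. Csf1 in microglia for PMX205 in Tg2576 was -2.92 with the first-base mice as a term (which leaves 1 PMX205 mouse, with 1 UMI, to carry the arm), -0.0757 with at least 1000 UMIs, -0.1349 without the mice with disagreeing labels and -0.2349 in hippocampus only. Csf1 in astrocytes by genotype was -0.0554 in DESeq2, -0.0005 with no filter, -0.1071 with cells chosen one by one and -0.8449 without the mice with disagreeing labels, and for PMX205 it was 0.1481 in Tg2576 without those mice and -1.09 in WT cortex. Csf1r in astrocytes with cells chosen one by one was -0.2249 by genotype and 0.1516 for PMX205 in Tg2576.

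The number of genes called in microglia by genotype (11) became 28 with no filter, 7 with cells chosen one by one, 5 without the mice with disagreeing labels, 3 in cortex, 4 in hippocampus and 1 without the Cst7-led cluster. For PMX205 in Tg2576 (0) it became 14 with no filter, 4 with the first-base mice as a term (again an arm of 1 mouse), 8 without the mice with disagreeing labels and 4 in hippocampus. For PMX205 in WT (0) it became 2 with no filter and 1 without those mice, and for genotype by treatment (0) 2 with no filter and 1 with the first-base mice as a term. Between regions (2) it became 12 with no filter, 7 with cells chosen one by one, 4 without the Cst7-led cluster, and 0 with at least 1000 UMIs, with at least 50 cells and without the mice with disagreeing labels. In astrocytes the count by genotype (0) became 3 with no filter, 1 with at least 1000 UMIs, 3 with at least 50 cells, 1 without the mice with disagreeing labels and 1 in cortex. For PMX205 in Tg2576 (0) it became 2 with no filter, 2 with at least 1000 UMIs and 1 without those mice, and in WT (0) 4 with no filter, 1 with doublets kept and 1 in cortex. Between regions (73) it became 48 with cells chosen one by one, 17 with at least 1000 UMIs and 45 without the mice with disagreeing labels.

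Without the pairing by mouse (no replicate block), 0 genes were called between regions in microglia and 29 in astrocytes. Csf1r was then at -0.18 (adjusted p = 0.917) in microglia and at -1.57 (adjusted p = 0.0431, edgeR) in astrocytes, so no call of a member changed.

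Leaving out 1 mouse at a time gave 6 to 12 genes by genotype in microglia, with the lowest count without Tg2576-vehicle mouse 2, 0 to 4 for PMX205 in Tg2576, 0 to 2 for PMX205 in WT and for genotype by treatment, and 0 to 4 between regions. In astrocytes it gave 0 to 2, 0 to 1, 0 to 1 and 51 to 74 genes in the order used above. Csf1r in microglia ran from -0.1116 to 0.0409 by genotype, from -0.1454 to 0.0098 and from -0.1086 to -0.0045 for PMX205 in Tg2576 and WT, from -0.0819 to 0.0724 for genotype by treatment and from -0.2422 to -0.1142 between regions. Csf1 in microglia ran from 2.15 to 3.34, from -0.1339 to 0.6033, from -4.15 to 2.05 and from -1.82 to 4.37, the far values of the last pair both without WT-PMX205 mouse 2, which leaves an arm of 1 mouse at 0 UMIs, assumed to vary like the others, so that they are no estimate of a fold. It did not pass the filter without Tg2576-vehicle mouse 1 or Tg2576-PMX205 mouse 2. In astrocytes Csf1 ran from -0.6762 to 0.7218, from -1.48 to 0.132 and from -0.4579 to 1.62, and Csf1r from -0.3309 to 0.7193, from -0.8852 to 0.0257, from -0.8815 to -0.216 and, between regions, from -2.17 to -1.51.

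In gated microglia the direction of both members was kept on average in every alternative, with values of 2.31 to 3.02 for Csf1 and -0.6883 to -0.4922 for Csf1r when 1 mouse was left out. With at least 1 gate gene the values were 2.08 and -0.38 (exact permutation p = 0.0313 each). Csf1r in pericytes and mural cells was at 1082 CPM with doublets kept. Alternatives chosen after seeing the data were the first-base term, the barcodes shared between libraries, the Cst7-led cluster and the permutation tests on single values. With at least 50 cells, or in hippocampus only, PMX205 in WT could not be fitted, nor could the astrocyte regions with at least 50 cells. Depth limits what can be said of the ligands, since a mouse with 3 Csf1 UMIs in microglia stood at 12.3 to 50.6 CPM.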
